A study of Mus musculus with 9 samples.

Results

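The liver X receptor (LXR) genes described here are the sterol efflux transporters Abcg1 and Abca1, the ubiquitin ligases Mylip and Rnf145, the lipid synthesis genes Srebf1, Scd1 and Scd2, the receptors Nr1h2 and Nr1h3, and the apolipoprotein gene Apoe. They are 10 of the 16636 genes in the count table, taken by symbol, and all 10 were among the 14246 genes that passed the filter on low counts. They were chosen by measured values, since the group was drawn around Abcg1 and Mylip for their differences from untreated cells. In a fit without the set of the libraries, Abcg1 was the 1 gene called in the control transfection (edgeR adjusted p 0.00646, 0.00702% of genes tested), and Abcg1 and Mylip were the 2 genes called in the Stag3 transfection (edgeR adjusted p 0.00243 and 0.0163, 0.014% of genes tested). Rnf145 was just outside that threshold, at an edgeR adjusted p of 0.0531. The differences of the 10 genes from untreated cells are therefore given as a description, with no test. The comparison of the transfected groups with each other, and the other gene lists, were tested. For the 10 genes that comparison was not independent of the choice, which used the same siLuc and siStag3 libraries.

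The cells were E14 mouse embryonic stem cells of wild-type genotype, held in the naive state with LIF (1000 U/ml) and the inhibitors PD0325901 (1 µM, against MEK) and CHIR99021 (3 µM, against GSK3) on fibronectin. Untreated cells were compared with cells given siRNA against luciferase, a gene that mouse cells do not have (siLuc), and with cells given siRNA against Stag3, a cohesin subunit best known from meiosis (siStag3). In both transfected groups 50 pmol siRNA was delivered with 7.5 µl of the lipid reagent RNAiMax at the seeding of 200000 cells, a second dose followed the next day, and RNA was taken 48 h after the first. Each of the 3 groups had 3 libraries of polyadenylated RNA, 2 from a Set 1 (experiments 1 and 3) and 1 from a Set 3 (experiment 5, or experiment 1 for siLuc). What these numbers stand for is not given in the labels. All groups come from 1 cell line, and no group had the lipid reagent without siRNA, so reagent and siRNA cannot be told apart. Library totals ran from 29332436 to 44527534 counts.

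LXRs are nuclear receptors that are activated by oxysterols, the oxidised forms of cholesterol, and that bind DNA together with retinoid X receptors. Their known targets export sterol from the cell (Abca1, Abcg1), carry it away (Apoe), lower the uptake of lipoproteins (Mylip) and switch on fatty acid synthesis and desaturation (Srebf1, Scd1). Most of this is known from macrophages and liver, and the LXR element is a pair of direct repeats spaced by 4 bases.

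Promoter sequences of the members that differed most from untreated cells, and of Srebf1, are shown because they are where such an element would be looked for. The RefSeq promoter table (GRCm38.p6) held windows for 7 of the 10 genes, 14 windows of 300 bases in all. Abcg1, Scd1 and Scd2 were not among them. The LXR element was searched as 2 copies of AGGTCA on the same strand with 4 bases between them, on both strands, with up to 3 mismatches over the 12 letters. It was found in 3 of the 14 windows (21.4%), against 21.9% of all 32851 windows, so the share was that of promoters in general. On the strand of the gene, the 3 matches began 67 bases before the start of Abca1, 92 before a start of Rnf145 and 182 before a start of Srebf1. They are printed on the strand of the element, with the repeats in capitals:
Abca1: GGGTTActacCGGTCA
Rnf145: GGGTTActacAGTTCA
Srebf1: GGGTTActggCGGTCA
The first repeat as printed, GGGTTA, was the same in these 3 sites, and each site had 3 mismatches to the searched letters. The element of Rnf145 was on the strand of the gene. Those of Abca1 and Srebf1 were on the opposite strand, so there GGGTTA was the repeat nearer the start. In the 250 bases before each start that follow, on the strand of the gene and from RefSeq GRCm38.p6, capitals mark the LXR match (16 bases, spacer included) and CCAAT boxes (CCAAT or ATTGG). Positions are chr4:53159896-53160145 on the minus strand for Abca1, chr11:44520039-44520288 on the plus strand for Rnf145, chr11:60210472-60210721 on the minus strand for Srebf1 and chr13:45389492-45389741 on the plus strand for Mylip:
Abca1: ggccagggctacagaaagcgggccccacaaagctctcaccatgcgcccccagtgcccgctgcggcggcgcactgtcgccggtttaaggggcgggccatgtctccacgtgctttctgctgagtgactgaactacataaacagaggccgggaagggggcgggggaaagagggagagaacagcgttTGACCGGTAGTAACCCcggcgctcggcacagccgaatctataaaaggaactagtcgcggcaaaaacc
Rnf145: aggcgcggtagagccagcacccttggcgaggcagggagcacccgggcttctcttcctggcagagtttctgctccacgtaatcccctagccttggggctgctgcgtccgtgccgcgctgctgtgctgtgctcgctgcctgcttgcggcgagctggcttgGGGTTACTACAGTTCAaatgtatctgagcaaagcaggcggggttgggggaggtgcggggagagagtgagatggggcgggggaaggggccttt
Srebf1: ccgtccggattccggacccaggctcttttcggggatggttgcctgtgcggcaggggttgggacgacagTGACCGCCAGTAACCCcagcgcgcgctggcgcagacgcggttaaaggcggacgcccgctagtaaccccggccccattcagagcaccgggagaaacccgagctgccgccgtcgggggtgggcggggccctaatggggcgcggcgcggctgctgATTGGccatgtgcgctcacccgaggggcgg
Mylip: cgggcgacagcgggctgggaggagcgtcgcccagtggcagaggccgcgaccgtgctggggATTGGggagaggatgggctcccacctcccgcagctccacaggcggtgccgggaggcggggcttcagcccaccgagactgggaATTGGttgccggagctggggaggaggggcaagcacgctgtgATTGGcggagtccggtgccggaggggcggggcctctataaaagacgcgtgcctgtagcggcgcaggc
The Mylip window had no LXR match and had 3 CCAAT boxes, which began 190, 108 and 67 bases before the start. CCAAT boxes were in 3 of the 14 windows (21.4%), against 37.4% of all windows. The sterol regulatory element TCACCCCAC, the binding sequence of the SREBP factors, was in 0 of the 14 windows and in 0.551% of all windows. These matches describe the letters in the windows and show no binding.

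Levels are given as CPM, the counts of a gene scaled to a common library size with TMM factors, first in Set 1 experiment 1, then in Set 1 experiment 3, then in Set 3. Differences are log2 fold changes from 1 edgeR fit of all 9 libraries with group and set as terms. The 10 genes had a median log2 difference of 0.47 in siLuc and 0.45 in siStag3 against untreated cells, where the median of all 14246 genes was -0.0024 and -0.0056. In siLuc 6 of the 10 passed an adjusted p of 0.05 higher (background 1.65% of genes tested) and 2 lower (background 2.55%). In siStag3 7 of the 10 passed higher (background 1.07%) and 0 lower (background 1.46%). Since the genes were chosen with these contrasts known, nothing is read from those counts. The 2 lower in siLuc, Nr1h2 and Apoe, became 0 or 1 when any of the untreated or siLuc libraries or the siStag3 library of Set 1 experiment 1 was left out, and in siStag3 the lower count became 2 without the siStag3 library of Set 3 and 1 without the siLuc library of Set 3. The 7 higher in siStag3 became 6 without any 1 of the untreated libraries, the siLuc library of Set 1 experiment 1 or the siStag3 library of Set 3, where Srebf1 missed the threshold. They became 5 without the siStag3 library of Set 1 experiment 1, where Srebf1 and Scd2 missed it (edgeR adjusted p 0.144 and 0.0663).

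**Figure D1:**
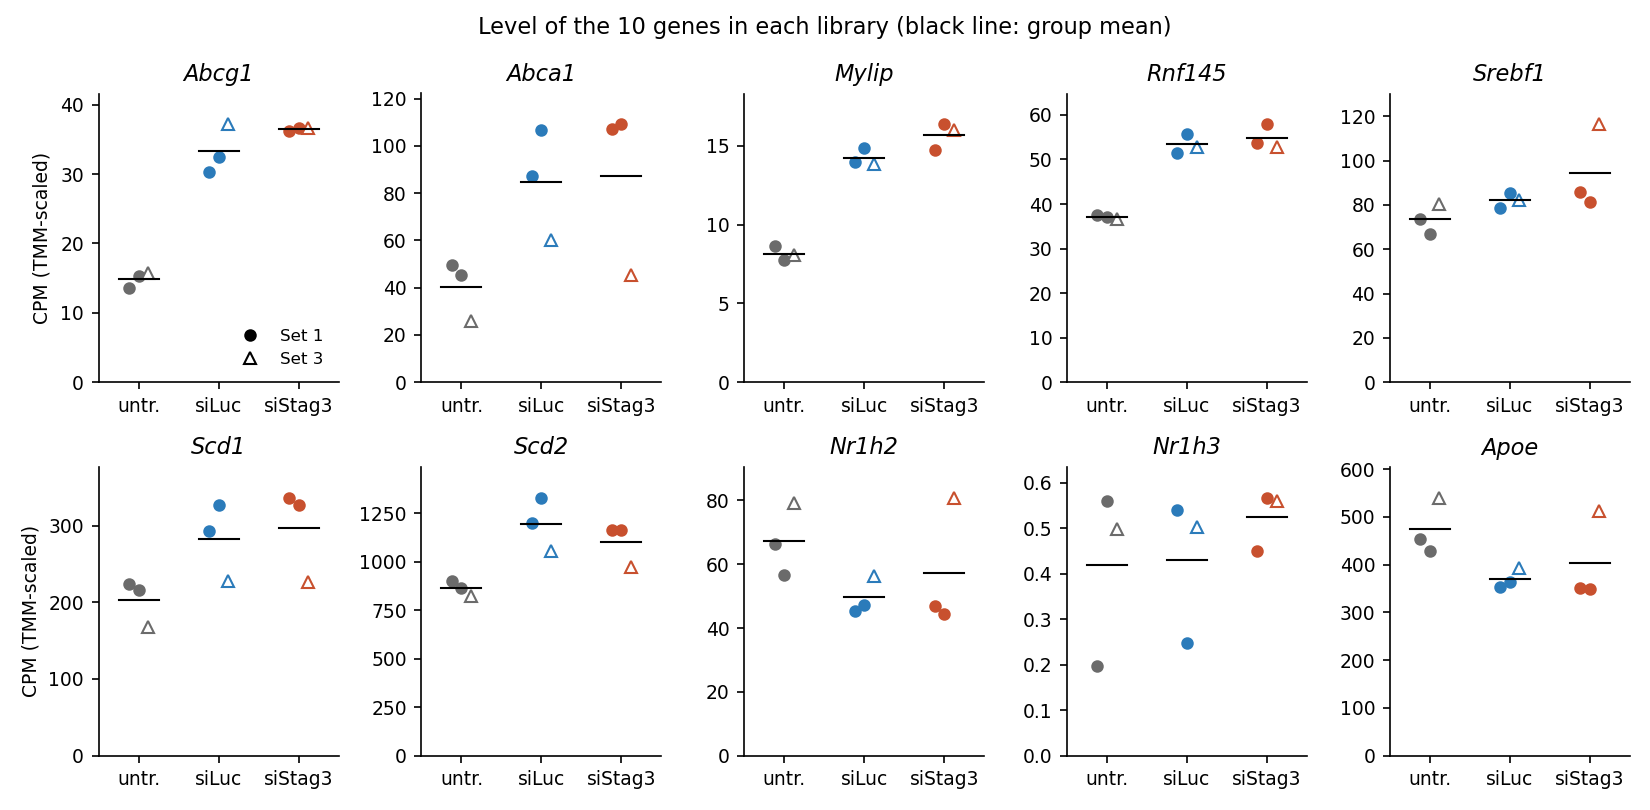
Level of each of the 10 genes in every library, in TMM-scaled CPM on linear axes that start at 0, for untreated, siLuc and siStag3 cells; filled circles are Set 1, open triangles Set 3 and black lines the mean of 3 libraries. Abcg1 sits at 13.5 to 15.7 CPM in untreated cells and at 30.3 to 37.2 CPM in transfected cells, while Abca1 is lowest in Set 3 of every group.

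Abcg1 (ENSMUSG00000024030, on chromosome 17) exports cholesterol to high-density lipoprotein. Its level was 13.5, 15.4 and 15.7 CPM in untreated cells, 30.3, 32.5 and 37.2 CPM in siLuc and 36.2, 36.7 and 36.7 CPM in siStag3. All 6 transfected libraries were above all 3 untreated ones, and the siLuc and siStag3 ranges overlapped. The group means were 14.9 ± 1.16 (SD, n = 3), 33.3 ± 3.52 and 36.5 ± 0.246 CPM. Abcg1 was 2.24-fold higher in siLuc than in untreated cells (log2 1.16, SE 0.0767) and 2.46-fold higher in siStag3 (log2 1.30, SE 0.0766). The siLuc difference was 1.16 and 1.08 in the 2 experiments of Set 1 and 1.24 in Set 3, on the log2 scale.

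Abca1 (ENSMUSG00000015243, on chromosome 4) loads cholesterol and phospholipid onto apolipoprotein A-I. Its level was 49.6, 45.5 and 26.0 CPM in untreated cells, 87.2, 107 and 60.2 CPM in siLuc and 107, 109 and 45.2 CPM in siStag3. The Set 3 library was the lowest of each group, and the siStag3 library of Set 3 lay within the untreated range, so siStag3 and untreated cells overlapped while siLuc and untreated cells did not. Abca1 was 2.13-fold higher in siLuc than in untreated cells (log2 1.09, SE 0.113) and 2.10-fold higher in siStag3 (log2 1.07, SE 0.114). Within the sets, the log2 difference of siStag3 was 1.11 and 1.26 in Set 1 and 0.80 in Set 3, and that of siLuc was 0.81, 1.23 and 1.21 in the same order.

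Mylip (ENSMUSG00000038175, on chromosome 13; also called Idol) is a ubiquitin ligase that marks lipoprotein receptors for degradation. It was at 8.64, 7.77 and 8.04 CPM in untreated cells, at 14.0, 14.8 and 13.9 CPM in siLuc and at 14.7, 16.3 and 16.0 CPM in siStag3. The libraries of each group lay close together, with means of 8.15 ± 0.444 (SD, n = 3), 14.2 ± 0.539 and 15.7 ± 0.837 CPM, and no transfected library reached down to the untreated range. The log2 difference from untreated cells was 0.80 (SE 0.0856) in siLuc and 0.94 (SE 0.0853) in siStag3.

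Rnf145 (ENSMUSG00000019189, on chromosome 11) encodes a ubiquitin ligase of the endoplasmic reticulum that acts in sterol control. It was at 37.5, 37.2 and 36.7 CPM in untreated cells, at 51.5, 55.8 and 52.9 CPM in siLuc and at 53.8, 57.9 and 52.7 CPM in siStag3. Its untreated mean was 37.1 ± 0.387 CPM (SD, n = 3), and the transfected groups stood 1.44-fold (siLuc) and 1.48-fold (siStag3) above it. The log2 differences were 0.52 (SE 0.0613) and 0.56 (SE 0.0613), with 0.46 to 0.58 over the 2 experiments of Set 1 and Set 3 in siLuc and 0.52 to 0.64 in siStag3.

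Srebf1 (ENSMUSG00000020538, on chromosome 11) encodes SREBP-1, the transcription factor of fatty acid synthesis. Its level was 73.5, 66.8 and 80.3 CPM in untreated cells, 78.7, 85.6 and 82.4 CPM in siLuc and 85.9, 81.3 and 116 CPM in siStag3. Untreated and siLuc libraries overlapped, and the siStag3 library of Set 3 stood above the other 8. The log2 difference was 0.17 (SE 0.0859) in siLuc and 0.35 (SE 0.0858) in siStag3. With a correction for GC content the siLuc difference was 0.33 and the siStag3 difference 0.45. In the fits that left out 1 library, the siStag3 difference lay between 0.22 (without the siStag3 library of Set 3) and 0.40, and the edgeR adjusted p was between 0.0533 and 0.231 in the 6 of 9 fits where it missed the threshold.

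Scd1 (ENSMUSG00000037071) and Scd2 (ENSMUSG00000025203), both on chromosome 19, encode stearoyl-CoA desaturases, which make monounsaturated fatty acids. Scd1 was at 224, 216 and 168 CPM in untreated cells, at 293, 326 and 227 CPM in siLuc and at 336, 326 and 227 CPM in siStag3. Scd2, the more abundant of the pair, was at 901, 865 and 824 CPM in untreated cells, at 1201, 1328 and 1052 CPM in siLuc and at 1164, 1164 and 971 CPM in siStag3. For both genes the lowest transfected library, that of Set 3, was above the highest untreated one. The log2 difference of Scd1 was 0.47 (SE 0.059) in siLuc and 0.54 (SE 0.059) in siStag3, and that of Scd2 was 0.46 (SE 0.0595) and 0.34 (SE 0.0594). Of the 31-base words in their transcripts, 8.14% (Scd1) and 6.81% (Scd2) also occur in other genes, most of all Scd3, so part of their reads could be split between paralogs; for the other 8 genes the share was at most 1.45%.

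Nr1h2 (ENSMUSG00000060601, on chromosome 7) encodes LXR beta and Nr1h3 (ENSMUSG00000002108, on chromosome 2) LXR alpha. Nr1h2 was at 66.3, 56.6 and 79.3 CPM in untreated cells, at 45.3, 47.1 and 56.4 CPM in siLuc and at 46.9, 44.4 and 80.8 CPM in siStag3. All siLuc libraries were below the untreated ones, and the siStag3 libraries split, with Set 1 below the untreated range and Set 3 above it. Its log2 difference from untreated cells was -0.44 (SE 0.105) in siLuc and -0.27 (SE 0.104) in siStag3, and -0.24 and -0.16 with the GC correction. Nr1h3 was nearly silent, at 0.196 to 0.567 CPM across the 9 libraries (7 to 23 counts), where 3 counts correspond to 0.0674 to 0.102 CPM. Its log2 differences of 0.03 (SE 0.398) and 0.33 (SE 0.385) were smaller than their standard errors, and the depth does not show a difference of that size.

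Apoe (ENSMUSG00000002985, on chromosome 7) encodes apolipoprotein E, a carrier of lipids between cells. It was at 454, 430 and 540 CPM in untreated cells, at 353, 365 and 394 CPM in siLuc and at 350, 349 and 512 CPM in siStag3. All siLuc libraries were below the untreated ones (log2 difference -0.35, SE 0.0735). In siStag3 the 2 libraries of Set 1 were below the untreated range and that of Set 3 was within it (-0.25, SE 0.0735). With the GC correction the differences were -0.15 and -0.14. Among the 10 genes, Apoe and Nr1h2 were thus on the other side of 0 from the transporters, ligases and desaturases.

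The groups' CPM ranges did not overlap for 6 of the 10 genes higher in siLuc than in untreated cells (Abcg1, Abca1, Mylip, Rnf145, Scd1 and Scd2; background 9.59% of genes tested) and for 2 lower (Nr1h2 and Apoe; background 10.3%). In siStag3, 6 were higher without overlap (Abcg1, Mylip, Rnf145, Srebf1, Scd1 and Scd2; background 4.63%) and 0 lower (background 5.38%). Both contrasts share the untreated libraries. Since the genes were chosen with these contrasts known, nothing is read from these counts without overlap either. GC content moved with the differences across all genes: over 14226 genes the Spearman correlation of GC content with the log2 difference was -0.493 in siLuc and -0.316 in siStag3, a description across genes, which are not independent replicates. Srebf1 (59.4% GC), Nr1h2 (60.9%), Nr1h3 (57.1%) and Apoe (60.0%) are GC-rich, and their values moved by more than 1.5 times with the correction in siLuc. Abcg1 (53.6%), Abca1 (47.7%), Mylip (50.0%), Rnf145 (48.6%), Scd1 (49.1%) and Scd2 (50.0%) had GC-corrected siLuc differences of 1.23, 1.05, 0.80, 0.50, 0.46 and 0.48.

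**Figure D2:**
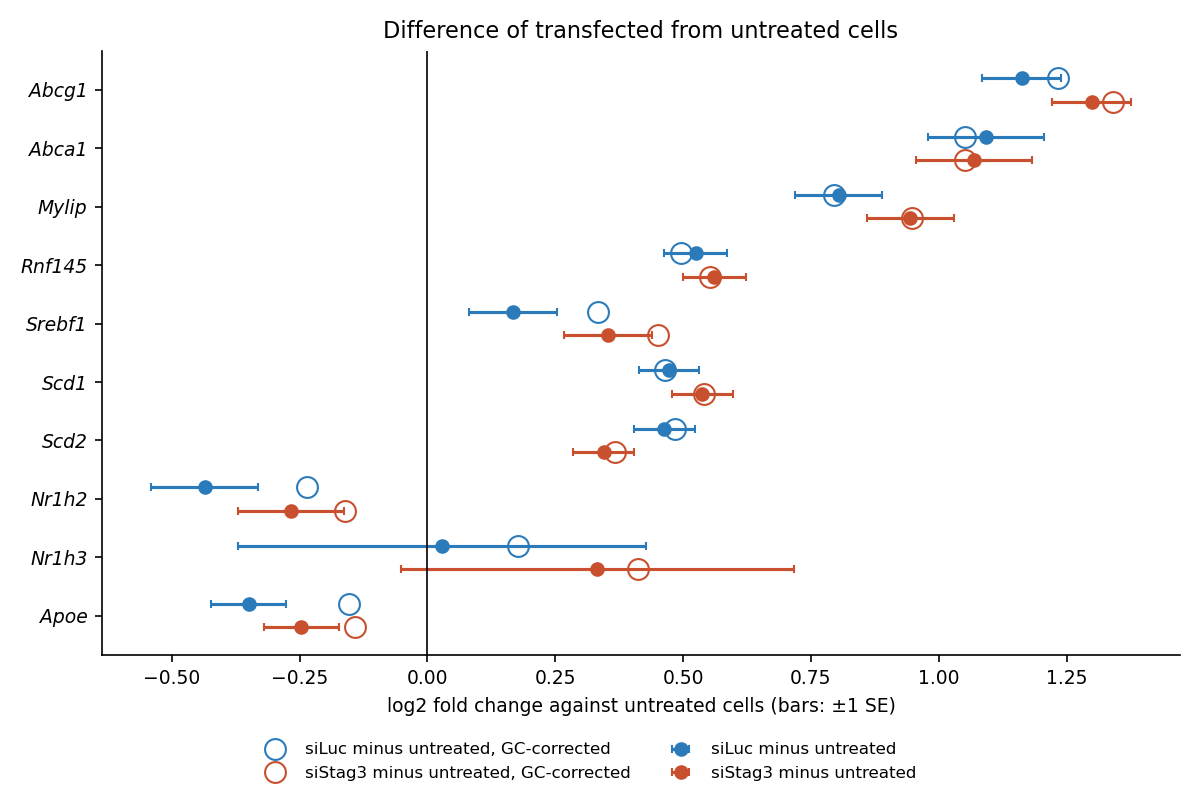
Log2 fold change of the 10 genes against untreated cells for siLuc (blue) and siStag3 (orange), from the fit with group and set over 9 libraries; filled points carry ±1 SE and large open circles are the GC-corrected values. Abcg1 reaches 1.16 and 1.30, Apoe and Nr1h2 lie below 0, and the open circles stand apart from the filled points mainly for Srebf1, Nr1h2, Nr1h3 and Apoe.

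Per kilobase of the longest annotated transcript, the order of the 10 genes in untreated cells ran from Apoe (337 CPM per kb) and Scd2 (158) through Scd1 (42.0), Nr1h2 (33.7), Srebf1 (17.1) and Rnf145 (8.81) to Abca1 (3.93), Mylip (2.66), Abcg1 (2.55) and Nr1h3 (0.211). The library ranges of Scd1 and Nr1h2 overlapped, as did those of Abca1, Mylip and Abcg1, so these neighbours did not differ beyond their spread. In siLuc the means of Abca1 (8.25), Abcg1 (5.71) and Mylip (4.64 CPM per kb) were still the lowest but for Nr1h3. Of the receptor pair, Nr1h2 was the abundant form, at 33.7 against 0.211 CPM per kb for Nr1h3.

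Stag3, the target of the knockdown, was at 24.1, 24.3 and 28.6 CPM in untreated cells, at 22.5, 23.3 and 26.6 CPM in siLuc and at 13.5, 15.2 and 15.6 CPM in siStag3. All siStag3 libraries were below all others. Stag3 fell to 61.2% of its siLuc level (log2 -0.71, SE 0.0722, edgeR quasi-likelihood adjusted p 0.00205), so the knockdown was partial. Without the siStag3 library of Set 1 experiment 1 the edgeR adjusted p was 0.0582, and without the set as a term it was 0.605.

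None of the 10 LXR genes passed the test between siStag3 and siLuc, a comparison in which 4 genes were called (0.0281% of genes tested) and 1122 had an unadjusted p under 0.05. The differences ranged from -0.12 (Scd2) to 0.30 (Nr1h3) on the log2 scale, with a median of 0.12 for the 10 genes and -0.0048 for all genes, and none of the 10 had groups without overlap (background 6.59%). GC content moved with this difference as well, at a Spearman correlation of 0.384 across genes. With the GC correction the median was 0.08 for the 10 genes and 0.0027 for all genes, and 0 of the 10 passed. The choice of the 10 genes used these siLuc and siStag3 libraries, so nothing is read from their medians. For Abcg1 the difference was 0.14 (95% interval -0.02 to 0.30, edgeR adjusted p 0.667) and for Mylip 0.14 (-0.04 to 0.32, adjusted p 0.701). Mylip was higher in siStag3 than in siLuc by 0.08 and 0.14 in the 2 experiments of Set 1 and by 0.20 in Set 3, where the libraries are of experiment 5 (siStag3) and experiment 1 (siLuc), while Abcg1 was higher by 0.26 and 0.17 in Set 1 and was at -0.02 in Set 3. Rnf145 had the narrow interval of -0.09 to 0.17 around 0.04 (edgeR adjusted p 0.884).

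Among the remaining genes, Abca1 had a difference between siStag3 and siLuc of -0.02 (95% interval -0.27 to 0.22, edgeR adjusted p 0.964), made of 0.30 and 0.03 in Set 1 and -0.41 in Set 3. Srebf1 was at 0.18 (-0.0009 to 0.37, adjusted p 0.636), Scd1 at 0.07 (-0.06 to 0.19, adjusted p 0.783) and Scd2 at -0.12 (-0.25 to 0.01, adjusted p 0.650). Nr1h2 was at 0.17 (-0.06 to 0.40, adjusted p 0.715) and Apoe at 0.10 (-0.06 to 0.26, adjusted p 0.738). For Srebf1, Nr1h2 and Apoe the Set 3 difference was 0.50, 0.52 and 0.38, against -0.09 to 0.13 in the 2 experiments of Set 1. These genes are GC-rich, and with the GC correction their fitted differences were 0.12, 0.08 and 0.01 in the same order. Nr1h3 had the widest interval (-0.54 to 1.15, adjusted p 0.852). These intervals cover counting and library error in this fit, and a p that missed the threshold does not show that the groups were alike.

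**Figure D3:**
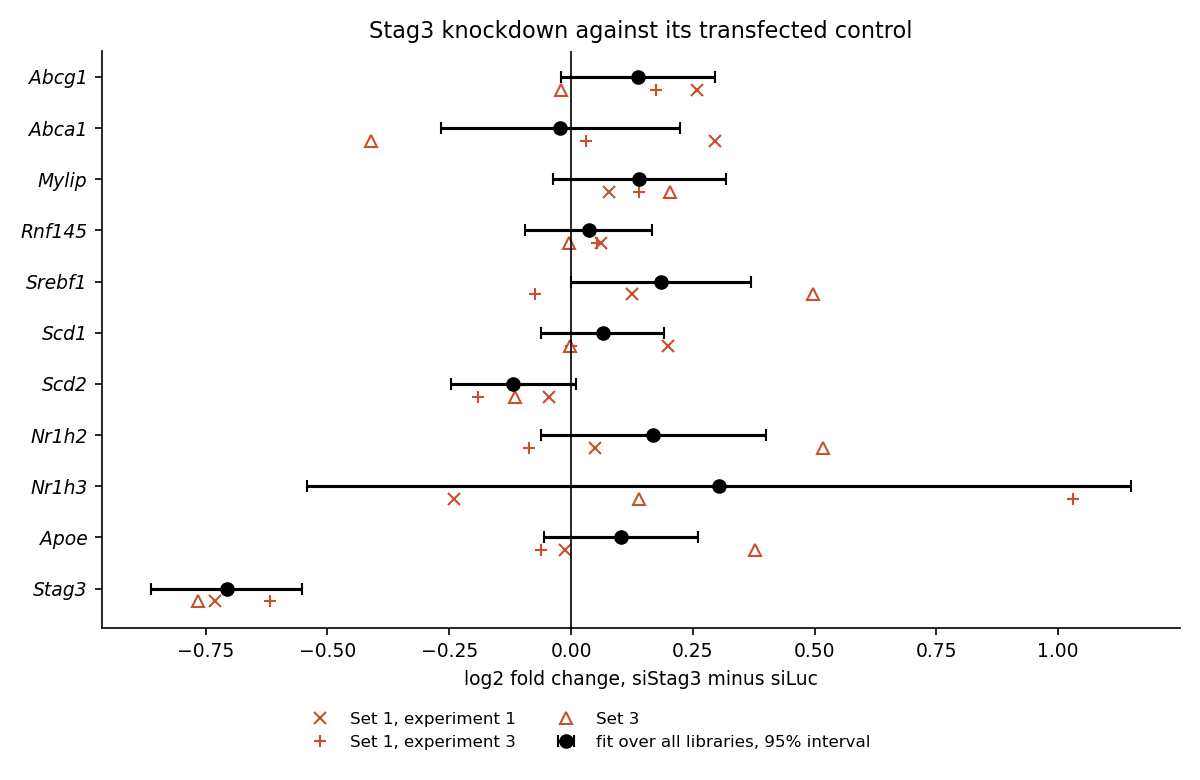
Log2 fold change of siStag3 minus siLuc for the 10 genes and Stag3; black points and bars are the fit over 9 libraries with its 95% interval, crosses, pluses and triangles the differences within Set 1 experiment 1, Set 1 experiment 3 and Set 3. The intervals of all 10 genes include 0, and that of Stag3 lies below 0. The Set 3 triangles of Abca1, Srebf1, Nr1h2 and Apoe lie outside the interval. So do the Set 1 experiment 1 crosses of Abca1 and Scd1 and the Set 1 experiment 3 pluses of Srebf1, Nr1h2 and Apoe.

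More genes differed between the sets than between the treatments. Set 3 against Set 1, with group as a term, gave 6076 called genes (42.7% of genes tested), among them 6 of the 10. Abca1 was lower in Set 3 (log2 -0.93, edgeR adjusted p 7.24e-05), as were Scd1 (-0.46, adjusted p 2.64e-05) and Scd2 (-0.21, adjusted p 0.00587). Nr1h2 (0.50, edgeR adjusted p 0.00111), Apoe (0.33, adjusted p 0.00117) and Srebf1 (0.23, adjusted p 0.0231) were higher in Set 3, and of these Apoe and Srebf1 missed the threshold with the GC correction (0.07 and -0.02). Abcg1 (0.12, edgeR adjusted p 0.134), Mylip (-0.01, adjusted p 0.886), Rnf145 (-0.04, adjusted p 0.541) and Nr1h3 (0.31, adjusted p 0.477) did not pass. Whether the effect of transfection differed between the sets was not tested, since Set 3 has 1 library per group.

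Likeness to Abcg1 and Mylip was measured as the Pearson correlation of log2 CPM over the 9 libraries after the mean of each set was removed, among the 9059 genes whose log2 CPM averaged 3 or more. The genes most like Abcg1 were Rnf145 (r = 0.989), Manba (0.989), Gsr (0.985), Vwa3b (0.983) and Scd1 (0.981), with Mylip at rank 8, Abca1 at rank 12 and Scd2 at rank 101. Those most like Mylip were Rnf145 (0.988), Ldha (0.986), A2m (0.983), Camk2b (0.977) and Abcg1 (0.976). Nr1h2 and Apoe ran against Abcg1, at -0.78 and -0.84. The libraries shared by all these values differ by treatment and depth, so the correlations are a description. Manba (beta-mannosidase of the lysosome) was at 32.1, 42.3 and 43.1 CPM and Ldha (lactate dehydrogenase) at 227, 319 and 336 CPM as means of untreated, siLuc and siStag3 cells.

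Other known LXR targets were a list of 16 genes, of which 8 were tested. In siLuc 0 of 8 rose (background 1.65%) and 1 fell (background 2.55%), and in siStag3 0 rose (background 1.07%) and 2 fell (background 1.46%). The median log2 difference was -0.12 in siLuc and -0.21 in siStag3. All 8 differences were below 0 in both, except that with the GC correction Apoc1 (0.0075), Pltp (0.09) and Lpcat3 (0.06) were above 0 in siLuc and Lpcat3 (0.04) in siStag3. Mlxipl, which encodes the glucose-responsive factor ChREBP, fell from 9.73 ± 2.24 CPM (SD, n = 3) to 6.84 ± 1.51 CPM in siLuc (log2 -0.51, SE 0.124, edgeR adjusted p 0.0391) and to 6.46 ± 0.827 CPM in siStag3 (-0.59, SE 0.125, adjusted p 0.0239). Lpl, which encodes lipoprotein lipase, fell in siStag3 (55.4 ± 13.9 to 40.6 ± 11.5 CPM, log2 -0.46, SE 0.0729, edgeR adjusted p 0.00428). In siLuc Lpl was at 50.8 ± 11.1 CPM and did not pass (-0.12, adjusted p 0.295), and siStag3 against siLuc did not pass for it either (-0.34, adjusted p 0.221). With the GC correction Lpl did pass in siLuc (-0.18, adjusted p 0.0469) and between siStag3 and siLuc (-0.30, adjusted p 0.0153). Lpcat3, a phospholipid acyltransferase and LXR target, was at 44.8, 44.3 and 44.7 CPM in untreated, siLuc and siStag3 cells (log2 -0.01 and -0.0041 against untreated cells).

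Among 16 genes of fatty acid synthesis, Elovl5, a fatty acid elongase, rose in siLuc (48.9 ± 5.84 to 59.6 ± 6.28 CPM, log2 0.29, SE 0.0676, edgeR adjusted p 0.0344) and in siStag3 (62.5 ± 13.0 CPM, 0.34, adjusted p 0.0159). Fads2, the delta-6 desaturase, rose in siStag3 (71.2 ± 1.18 to 84.3 ± 0.885 CPM, 0.24, adjusted p 0.0361) and Agpat2, an acyltransferase of triglyceride synthesis, fell in siLuc (32.0 ± 0.883 to 26.6 ± 1.59 CPM, -0.27, adjusted p 0.0391). With the GC correction Agpat2 was at -0.12 and did not pass (edgeR adjusted p 0.237). The others did not pass, 14 of 16 in each contrast, and the median difference was -0.03 in siLuc and 0.01 in siStag3. The background was 1.65% of genes tested higher and 2.55% lower in siLuc, and 1.07% and 1.46% in siStag3. Fasn, the fatty acid synthase, was at -0.27 (edgeR adjusted p 0.0723) in siLuc and -0.13 (adjusted p 0.458) in siStag3.

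Of 26 genes of cholesterol synthesis and uptake, 0 rose (background 1.65%) and 2 fell (background 2.55%) in siLuc. In siStag3 0 passed (background 1.07% higher and 1.46% lower). Tm7sf2, a sterol reductase, was among the 2. It was at 9.98, 9.27 and 12.3 CPM in untreated cells and at 6.72, 7.23 and 9.76 CPM in siLuc (log2 -0.42, SE 0.0963, edgeR adjusted p 0.0317). In siStag3 it was at 9.45 ± 2.63 CPM (SD, n = 3; log2 -0.17, adjusted p 0.374). Vldlr (0.324 CPM, 10 to 17 counts in untreated cells) and Lrp8 (3.55 CPM) are 2 of a list of 3 lipoprotein receptors on which Mylip acts. These 2 did not pass in either contrast, and the other receptor is not reported here. At such counts, Vldlr missing the threshold says little about it. The median of the 26 genes of cholesterol synthesis and uptake was -0.11 in siLuc and -0.10 in siStag3. mRNA levels say nothing of the receptor proteins on which Mylip acts.

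In sterol storage and esterification (10 genes, 9 tested), Plin2, a lipid droplet coat protein, fell in siLuc (37.3 ± 3.18 to 29.5 ± 0.355 CPM, log2 -0.34, edgeR adjusted p 0.0215) and in siStag3 (30.0 ± 1.61 CPM, -0.31, adjusted p 0.0293). Npc2, which carries cholesterol out of the lysosome, fell in siLuc (-0.23, adjusted p 0.0312). Of the LXR partners and cofactors 16 of 17 were tested and 0 passed in either contrast (medians 0.0016 and -0.03), among them Rxra at 15.0, 15.0 and 16.7 CPM and Rxrb at 33.2, 29.0 and 32.1 CPM. Of the 6 enzymes that make or clear oxysterols 4 were tested and 0 passed (medians -0.22 and -0.30). The background was 1.65% of genes tested higher and 2.55% lower in siLuc, and 1.07% and 1.46% in siStag3. At such shares 0 calls in a list of this size shows nothing particular to it. Between siStag3 and siLuc 0 genes of any of these lists passed (background 0.0281%). With the GC correction 1 did, Lpl, where 63 of all genes tested passed.

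Of these 12 calls in the lists, all but Lpl in siStag3 were at an edgeR adjusted p of 0.0159 or more. Lpl in siStag3 (adjusted p 0.00428) passed in 18 of 20 alternatives. All 12 stayed below an adjusted p of 0.05 with DESeq2, its size factors, no filter, a filter on mean counts and the 6 libraries compared. Total counts ended 2 of the 12 calls, a fit that was not robust 1 and Set 1 alone 6. Leaving out the untreated library of Set 3 ended all 12 (edgeR adjusted p 0.0515 to 0.208). Leaving out the untreated libraries of Set 1 experiments 1 and 3 ended 10 and 7 of the 12. For the siLuc libraries of Set 1 experiments 1 and 3 and of Set 3 the calls ended were 9, 3 and 7. For the siStag3 libraries of Set 1 experiments 1 and 3 they were 9 and 5, and for that of Set 3 they were 0. With the GC correction 10 of the 12 stayed below an adjusted p of 0.05, all but Agpat2 and Mlxipl in siLuc (Mlxipl -0.35, edgeR adjusted p 0.0508), and without the set as a term 0 did. The GC correction also raised the counts of some lists. In siLuc 6 of 26 genes of cholesterol synthesis and uptake fell and 3 of 16 of fatty acid synthesis rose. In siStag3 3 of 9 genes of sterol storage and 1 of 4 oxysterol enzymes fell. There 3 of 16 genes of fatty acid synthesis and 1 of 16 LXR partners, Rxra (0.25, edgeR adjusted p 0.0277), rose. Over all 14246 genes the calls rose as well, from 235 higher and 363 lower to 444 and 505 in siLuc. In siStag3 they rose from 153 and 208 to 464 and 484. Calls thus rose over all genes too. Whether they rose more in a list, as for cholesterol synthesis and uptake in siLuc (2 to 6 of 26 lower), was not tested.

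**Figure D4:**
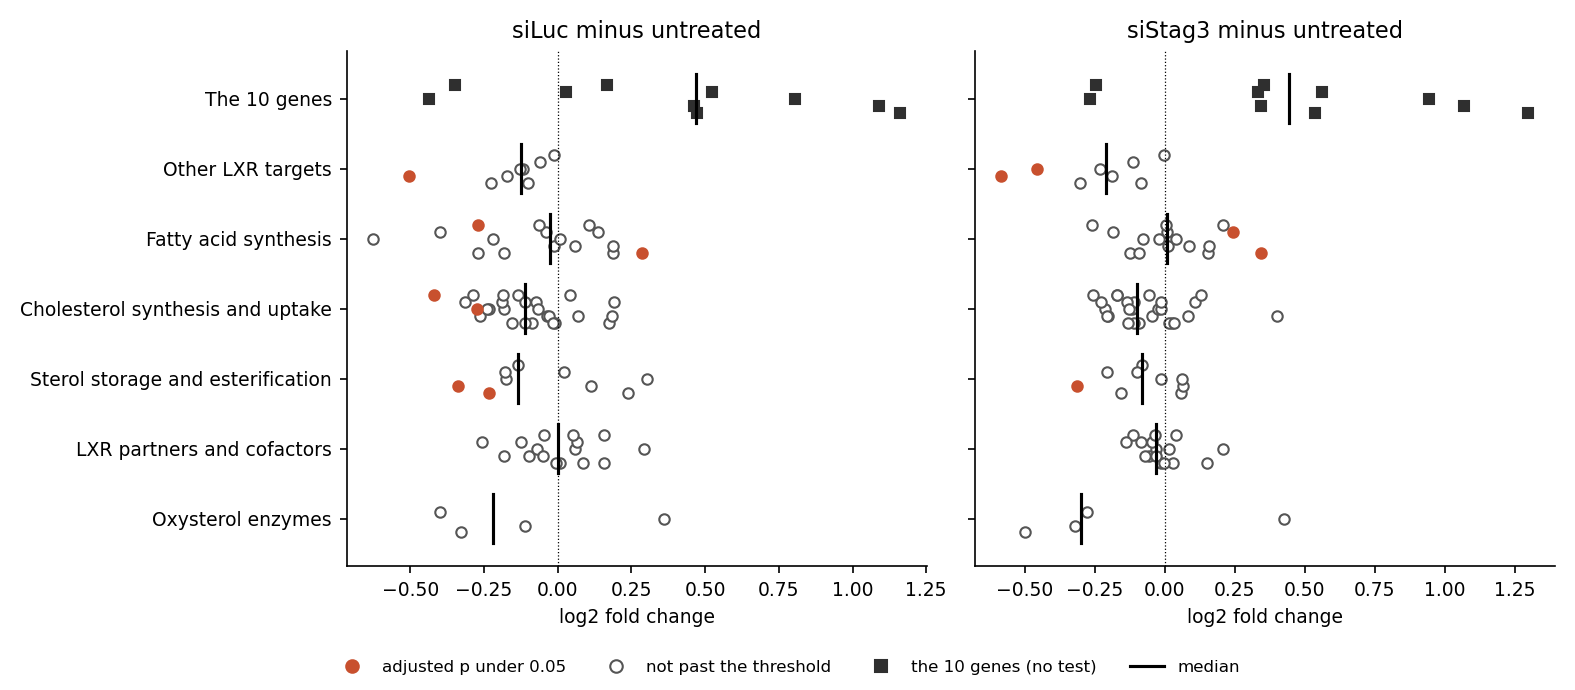
Log2 fold change of each tested gene of 7 lists against untreated cells, in siLuc (left) and siStag3 (right); black squares are the 10 genes, shown with no test, filled orange circles passed an adjusted p of 0.05, open circles did not, and vertical bars are list medians. The 10 genes, which were chosen with these contrasts known, have medians of 0.47 and 0.45. The tested genes of the other LXR targets have medians of -0.12 and -0.21. All values are without the GC correction.

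The cell type labels were checked against markers. The 7 naive stem cell markers, Pou5f1, Nanog and Sox2 among them, summed to 4371 to 4811 CPM in every library. Against untreated cells 0 of 7 passed in siLuc (background 1.65% higher and 2.55% lower) or in siStag3 (1.07% and 1.46%). LXR targets are best known from macrophages, so their markers were read too. Of the 6 macrophage markers Adgre1 and Lyz2 were not analysed here, Csf1r was at most 0.112 CPM, and the sum of 12.7 to 15.7 CPM was mostly Cd68. The 10 primitive endoderm markers summed to 3.81 to 4.46 CPM in untreated, 3.81 to 4.39 in siLuc and 2.90 to 3.88 CPM in siStag3, with Ttr not analysed here, and the 7 fibroblast markers to 3.34 to 5.24, 3.24 to 4.14 and 3.53 to 3.87 CPM, with Dcn not analysed here. The part of other cell types in these values was not tested. In bulk RNA a change in the share of cells and a change in RNA per cell cannot be told apart.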

How the data were processed

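Bulk RNA-seq libraries of mouse embryonic stem cells were prepared with the KAPA mRNA HyperPrep kit from total RNA, per the labels' protocols. The authors deposited 1 table of whole-number counts per gene. FastQC, Salmon, DESeq2 and GRCm39 are named in the submitters' processing notes, so the counts may be rounded Salmon estimates; the annotation release and strand setting are not given in the sources used here. The smallest row sum was 9, and 8 rows had no symbol.

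Columns name a group, a set and an experiment, and were assigned to groups by name. The main test was edgeR 4.0.16 (R 4.3.3; robust quasi-likelihood F test, TMM factors, filterByExpr, group and set as terms, Benjamini-Hochberg over 14246 genes, threshold 0.05). The set entered because libraries separated by it: the biological coefficient of variation was 7.62% with the set and 14.6% without. Alternatives were DESeq2 1.42.0, other scalings and filters, no set, a GC correction in 20 bins of transcript GC content (GENCODE, GRCm38), 6 libraries, Set 1 alone, each library left out and, chosen after seeing the data, a replicate block of set and experiment. The method was run on simulated counts with known changes. These held no GC trend between groups and no outlying library, so they do not show how it does on these data. The 3 libraries of a group are called biological replicates in the labels, with no more said, so p-values measure the spread between these samples. No 2 libraries of a group were identical or within sampling noise of each other.

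The 10 genes, the other lists, the promoter motifs and the set term were chosen with earlier results of these data known. All 10 genes are named, and of the other lists those past the threshold, at most 5 per list and contrast, except genes that are not reported here; Fasn, Lpcat3, Vldlr, Lrp8, Rxra and Rxrb were added for their known roles, after their values were seen. Differences within the 2 experiments of Set 1, and within Set 3 (experiment 1 for siLuc, experiment 5 for the others), are of log2 CPM with a prior count of 2. Sequences and motifs are from RefSeq (GRCm38.p6); each motif was searched on both strands.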

Additional observations from a re-analysis of the deposited data

How the results depend on the processing

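Genes called in siLuc against untreated cells numbered 598, and 1 without the set as a term, 949 with the GC correction, 1328 with DESeq2, 1801 with the 6 libraries compared, 298 with Set 1 alone and 111 to 2458 with 1 library left out. In siStag3 against untreated cells they numbered 361, and 2 without the set, 948 with the GC correction, 949 with Set 1 alone and 78 to 1591 with 1 library left out. Between siStag3 and siLuc they numbered 4, and 0 without the set, 63 with the GC correction, 22 with DESeq2, 1 with the 6 libraries compared and 0 to 4 with 1 library left out. The extremes were fits without the untreated library of Set 3 (111) and without the siStag3 libraries of Set 1 experiment 1 (78, 0) and of Set 3 (2458, 1591). With total counts in place of TMM, 161 of 761 calls in siLuc were higher (21.2%, against 39.3%) and 100 of 356 in siStag3 (28.1%, against 42.4%). The column names do not carry the labels' replicate numbers. A replicate block of set and experiment from those names (Set 1 experiment 1, Set 1 experiment 3, Set 3), chosen after seeing the data, gave 317, 268 and 4 calls in the 3 comparisons. It ended the calls of Srebf1 in siStag3 (edgeR adjusted p 0.0757), Nr1h2 in siLuc (0.0593) and 8 of the 12 calls of the lists (at most 0.0725). It left Stag3 at -0.71 (edgeR adjusted p 0.00528). Libraries of 1 experiment of Set 1 did not deviate together: across 14246 genes the difference between experiments 1 and 3 correlated at -0.044 to -0.025 between groups (Pearson). Stag3 stayed at -0.71 between siStag3 and siLuc without the set (adjusted p 0.605) and at -0.76 to -0.67 with 1 library left out.

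Between siStag3 and siLuc, values near 0 changed sign. Abca1 (-0.02) was at 0.0411 without the set, at 0.000528 with the GC correction, at 0.15 with Set 1 alone and at -0.14 to 0.13 with 1 library left out. Nr1h2 (0.17) was at -0.0192 with Set 1 alone and at -0.0020 to 0.25 with 1 library left out, and Apoe (0.10) at -0.0383 and at -0.00974 to 0.15. In siLuc against untreated cells Nr1h3 (0.03) was at -0.0190 with total counts and at -0.28 to 0.37 with 1 library left out; its 7 to 23 counts limit its precision. The cause was not tested. Against untreated cells Abcg1 lay between 1.10 and 1.23 in siLuc and between 1.25 and 1.36 in siStag3 over 20 alternatives, Mylip between 0.75 and 0.85 and between 0.90 and 1.00.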
